A study of Mus musculus with 6 samples.

Results

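The genes described here are 10 genes listed for roles in the division of pre-B cells or their exit from it. They are the Myc family genes Myc and Mycn, the D-type cyclin genes Ccnd1, Ccnd2 and Ccnd3, and the kinase genes Cdk4 and Cdk6. The others are the inhibitor genes Cdkn1a and Cdkn1b and the repressor gene Bcl6. All 10 were taken as a list of names and were found among the 22367 protein-coding genes of GENCODE M1 on the mouse assembly mm9. For each gene, every H3K27ac peak, H3K4me3 region and Pax5 peak in a window of the gene body plus 20 kb on each side was collected from the deposited lists. H3K27ac is a histone mark of active promoters and enhancers, H3K4me3 is a mark of promoters, and Pax5 is the transcription factor that holds cells to the B lineage.

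The cells were RAG-/- µ+ pre-B cells, which came from bone marrow of C57BL/6 mice, males and females, aged 6 to 14 weeks. These mice lack RAG, so their B cell precursors cannot assemble their own receptor genes, and a rearranged IgM transgene supplies the heavy chain that lets them reach the pre-B stage. All samples shared this genotype, and no treatment or second genotype was compared. Chromatin immunoprecipitation and sequencing gave 1 library for each of the 3 lists, with 3 input samples that were not analysed here. There were thus no replicates, the depth of the libraries is unknown, and values are given as descriptions with no test. The labels do not separate large dividing from small resting pre-B cells. In such a pool, a weak mark in all cells and a strong mark in a few of them cannot be told apart.

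As background, signals from the pre-B cell receptor and from interleukin-7 drive large pre-B cells through several divisions, which need Myc factors and the D-type cyclins with their partner kinases Cdk4 and Cdk6. Cyclin D and its kinase phosphorylate the retinoblastoma proteins and thereby free the E2F factors that start DNA synthesis. Cells then stop dividing, with inhibitors such as p27 (Cdkn1b) holding the kinases, become small pre-B cells and rearrange their light chain genes, while Bcl6 protects them from the DNA damage response that breaks in these genes can evoke.

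The Pax5 peaks were where sequence could be set beside the lists, so the bases around the core letters of the Pax5 motif are shown first. Among the 29 Pax5 peaks in the 10 windows, 9 held the letters GCNTGAC, searched on both strands, somewhere in the peak. The 7 stretches below, of 120 bases each, were read from the + strand of the NCBIM37 genome (mm9), 5′ to 3′, and capitals mark the match to the Pax5 letters, which appears as its reverse complement where it lies on the other strand. They are shown because they include the intron peak with the highest Pax5 score of all 10 genes, at Bcl6, peaks at 3 starts and other distant peaks at Ccnd3, Cdk6 and Cdkn1b. Not all matches lay near the peak middle. Those of the Cdkn1b start peak, the Ccnd3 intron peak and the Cdkn1b downstream peak lay 219, 270 and 351 bp from it, outside the central 300 bases.
Bcl6 intron peak, chr16:23984382-23984501: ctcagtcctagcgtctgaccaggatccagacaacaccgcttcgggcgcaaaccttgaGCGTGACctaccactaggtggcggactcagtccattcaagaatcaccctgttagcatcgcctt
Cdkn1b start peak, chr6:134870188-134870307: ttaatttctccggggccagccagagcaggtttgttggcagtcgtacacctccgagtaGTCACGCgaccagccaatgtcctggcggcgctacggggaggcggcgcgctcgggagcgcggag
Myc start peak, chr15:61816467-61816586: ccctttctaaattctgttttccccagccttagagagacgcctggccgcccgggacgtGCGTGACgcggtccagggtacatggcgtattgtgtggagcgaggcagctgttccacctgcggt
Ccnd3 first start peak, chr17:47641775-47641894: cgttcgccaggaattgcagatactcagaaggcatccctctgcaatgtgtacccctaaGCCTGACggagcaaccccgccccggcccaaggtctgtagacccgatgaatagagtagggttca
Ccnd3 intron peak, chr17:47690477-47690596: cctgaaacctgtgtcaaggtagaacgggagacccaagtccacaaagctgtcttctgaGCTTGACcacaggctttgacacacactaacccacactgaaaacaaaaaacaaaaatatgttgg
Cdk6 intron peak, chr5:3494484-3494603: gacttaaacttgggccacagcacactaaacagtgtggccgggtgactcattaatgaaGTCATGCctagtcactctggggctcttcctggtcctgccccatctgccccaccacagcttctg
Cdkn1b downstream peak, chr6:134876797-134876916: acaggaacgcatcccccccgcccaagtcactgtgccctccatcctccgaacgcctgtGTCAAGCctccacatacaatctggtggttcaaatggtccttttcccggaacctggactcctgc
In the central 300 bases of the peaks, the Pax5 letters were found in 5 of 29 peaks (17.2%), near their share in all 15445 Pax5 peaks (18.4%). Of 51993 H3K27ac peaks without Pax5, 9.78% held them. The STAT letters TTCNNNGAA, the type of site bound by the factor downstream of interleukin-7, were in 4 of the 29 centres (13.8%), against 8.07% of all Pax5 peaks and 8.71% of the H3K27ac peaks without Pax5. The centres with STAT letters belonged to the start peak of Bcl6 and to distant peaks of Cdkn1b, Ccnd1 and Cdkn1a. The forkhead letters GTAAACA, the type bound by Foxo factors, were in 1 centre (3.45%), that of the first start of Ccnd3, against 3.09% and 3.99%. The Cdkn1b downstream stretch printed above also holds STAT letters, which are not capitalised. No overlap between matches of different motifs was looked for, and a match only describes the letters. Among the peaks with no Pax5 letters were the second highest peak of the 10 genes, in the Ccnd3 intron, and the highest peak of Ccnd1, upstream of the gene. Their middle 120 bases, + strand of mm9, hold no capitals.
Ccnd3 intron peak, chr17:47678947-47679066: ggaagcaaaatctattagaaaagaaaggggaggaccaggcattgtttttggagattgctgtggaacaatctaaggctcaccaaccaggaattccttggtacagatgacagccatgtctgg
Ccnd1 upstream peak, chr7:152127337-152127456: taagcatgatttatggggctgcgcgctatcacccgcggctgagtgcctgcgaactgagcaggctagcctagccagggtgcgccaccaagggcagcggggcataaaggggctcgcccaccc

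The lists held 69345 H3K27ac peaks, 782636 H3K4me3 bins of 25 bp, joined here into 17979 regions, and 15445 Pax5 peaks. Scores are the peak caller's own numbers and were compared within a list only, with medians of 8.52 for H3K27ac and 207.46 for Pax5, while H3K4me3 regions have no score and are described by their width, with a median of 1025 bp. The cells carried marks of the B lineage. Of 10 B lineage marker genes, 10 had H3K27ac, 9 had H3K4me3 and 10 had Pax5 within 1000 bp of a start. Igll1 was the gene without H3K4me3. The shares of all protein-coding genes were 49.0%, 53.0% and 38.1%. The highest H3K27ac scores at starts of the B lineage markers were 22.1 to 101.2. Of 13 marker genes of other tissues, 5 had H3K27ac at a start, with highest scores of 8.01 to 14.1. They were the T cell gene Lat, the myeloid genes Csf1r, Itgam and Mpo, and the erythroid gene Klf1. Lat was also the only gene of the 13 with Pax5 at a start, with a score of 851.79. At the B lineage markers, the highest Pax5 score at a start ran from 175.79 to 1163.11. H3K4me3 was at a start of 3 of the 13. The 8 genes of the 13 without H3K27ac, among them Cd3e, Cd3g, Cd8a, Elane and Gata1, had none of the 3 lists at a start. The part of other cells in the weak H3K27ac peaks below was not tested.

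At the starts, nearly all of these genes carried the 3 lists together. A gene was counted where a peak or region overlapped the 1000 bp on either side of any of its annotated starts. H3K4me3 was found at a start of 10 of 10 genes, against 53.0% of all protein-coding genes. H3K27ac was found at 9 of 10, against 49.0%, and Ccnd1 was the gene without it. Pax5 was found at 9 of 10, against 38.1%, and Ccnd2 was the gene without it. All 3 lists met at 8 of 10 genes, against 34.9%. Ccnd1, with H3K4me3 and Pax5 but no H3K27ac, had a combination held by 2.21% of protein-coding genes, and Ccnd2, with H3K4me3 and H3K27ac but no Pax5, one held by 10.9%. Pax5 lay somewhere in the window of all 10 genes, against 58.2% of protein-coding genes. The 10 genes were chosen by role, and the background counts silent genes too. These shares thus describe a group of marked genes and say nothing particular to it.

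**Figure D1:**
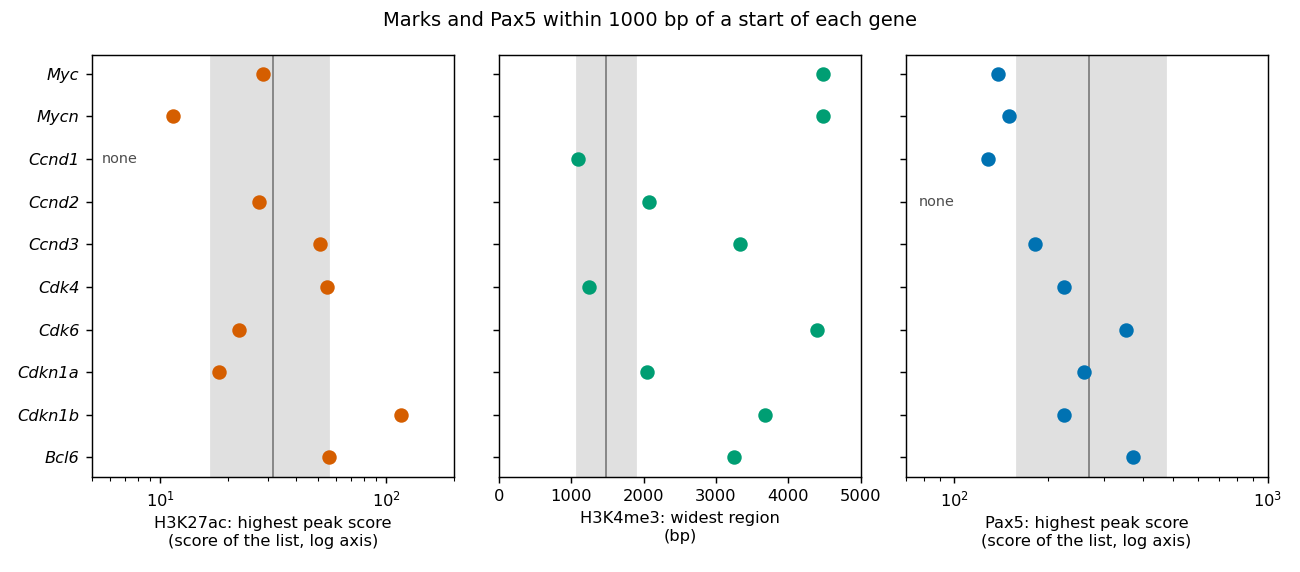
Highest H3K27ac score, widest H3K4me3 region (bp) and highest Pax5 score within 1000 bp of a start of each gene, 1 point per gene from 1 library per list, with log axes for the scores. The grey band spans the middle 50% and the line marks the median of all protein-coding genes that have a peak or region at a start: Cdkn1b lies to the right of the band for H3K27ac, Myc, Mycn and Cdk6 lie far to the right for H3K4me3, and all H3K4me3 points but those of Ccnd1 and Cdk4 lie to the right of the band.

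As the plot of values at the starts shows, most of the genes had wide H3K4me3, whereas few had high H3K27ac and none had high Pax5 scores. Among the 11848 genes with H3K4me3 at a start, the median width of the widest region was 1475 bp, and 90% of genes had at most 2450 bp. Myc, Mycn, Cdk6, Cdkn1b, Ccnd3 and Bcl6 all exceeded the latter, with 4475, 4475, 4400, 3675, 3325 and 3250 bp. Ccnd2 had 2075 bp and Cdkn1a 2050 bp, Cdk4 had 1250 bp, and Ccnd1 had 1100 bp. In contrast, the highest H3K27ac score at a start passed the upper quartile of all genes with a peak there, 56.0, at Cdkn1b (116.4) and, barely, at Bcl6 (56.1). No gene reached the upper quartile of Pax5 scores, 472.62. The closest was Bcl6 with 371.31, and the lowest were Ccnd1 with 128.61 and Myc with 137.74. The median of the highest score over all genes with Pax5 at a start was 269.4, and only Bcl6 and Cdk6 (354.67) were above it.

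Myc, a basic helix-loop-helix factor that drives growth and cell cycle entry, occupies chr15:61816946-61821929 on the + strand of chromosome 15 (ENSMUSG00000022346.8). It was compact: all 3 H3K27ac peaks and the Pax5 peak lay within 1000 bp of its 5 annotated starts. The main H3K27ac peak covered 2254 bp across the upstream starts with a score of 28.5, between flanking peaks of 7.38 and 12.4. A single H3K4me3 region of 4475 bp, from 61815555 to 61820029, covered 61.9% of the gene from its 5′ end and was among the widest of the list, at rank 79 of 17979. Only 0.434% of regions were wider. A further region of 300 bp lay 1.67 kb upstream. The Pax5 peak, 614 bp at 0.41 kb upstream of the first start with the letters GCGTGAC shown above, had a score of 137.74, and 71.5% of Pax5 peaks scored higher. No other peak or region lay within 20 kb of the gene.

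Mycn, the paralogue of Myc that can stand in for it in early lymphoid cells, lies at chr12:12942902-12948720 on the − strand of chromosome 12 (ENSMUSG00000037169.8). It also had an H3K4me3 region of 4475 bp, of the same width and rank as that of Myc, and a second of 325 bp in an exon. H3K27ac was weak beside this breadth, with 3 narrow peaks of 227, 389 and 459 bp and scores of 8.14, 8.95 and 11.4. Of all genes with H3K27ac at a start, 14.3% had a lower highest score. Pax5 showed 3 small peaks within 1000 bp of its 3 starts, with scores of 92.7, 150.1 and 107.2, all below the median of the list, and 99.8% of protein-coding genes had fewer Pax5 peaks at their starts. Thus the 2 Myc genes had equally wide H3K4me3, while the highest H3K27ac score at a start was 28.5 at Myc and 11.4 at Mycn.

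Ccnd1, which encodes cyclin D1, the D-type cyclin best known from non-lymphoid tissues, lies at chr7:152115836-152125774 on the − strand of chromosome 7 (ENSMUSG00000070348.4). Its start region had H3K4me3 and Pax5 without H3K27ac. H3K4me3 covered 1100 bp over the second annotated start and 475 bp within 1000 bp of the first. Pax5 peaks with scores of 128.61 and 126.55 lay at these starts, and further upstream there were peaks of 364.37 at 1.62 kb and 96.67 at 3.56 kb. These 4 were all the Pax5 peaks in the 10 windows that did not overlap H3K27ac. The H3K27ac peaks of the gene, 7 with scores from 3.97 to 25.0, all lay in its 3′ part or downstream, the nearest 4.38 kb from a start, and the 23.1 peak at 22.76 kb lay at the start of Oraov1, a neighbouring gene, with H3K4me3 of 1450 bp. The Pax5 peaks in the 3′ part, 184.86 in an exon at 4.17 kb and 231.2 downstream at 9.26 kb, did overlap H3K27ac. With 6 Pax5 peaks, or 1.20 per 10 kb of window, Ccnd1 had the densest Pax5 of the 10 genes, and 99.6% of protein-coding genes had fewer per length.

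Ccnd2, which encodes cyclin D2, a cyclin induced by growth factor signals in early B cells, lies at chr6:127075797-127101066 on the − strand of chromosome 6 (ENSMUSG00000000184.9). It had marks at its start and Pax5 only at a distance. H3K27ac covered 1890 bp at the start with a score of 27.5, followed upstream by peaks of 10.9 and 5.94. H3K4me3 covered 2075 and 1375 bp at the start and 3 shorter stretches of 100, 500 and 100 bp up to 3.98 kb upstream. The start of the noncoding gene 9330179D12Rik lies in the same place, and the lists do not tell whose promoter a mark belongs to. The nearest Pax5 peak, with a score of 104.79, lay 11.97 kb upstream on an H3K27ac peak of 8.16, and the other, 211.95, lay at the start of the genes 9630033F20Rik and Gm17701 beyond the 3′ end, with H3K27ac of 15.0 and H3K4me3 of 1000 bp. No peak of Pax5 lay in the gene body, where H3K27ac also had a peak of 7.40 in an intron.

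**Figure D2:**
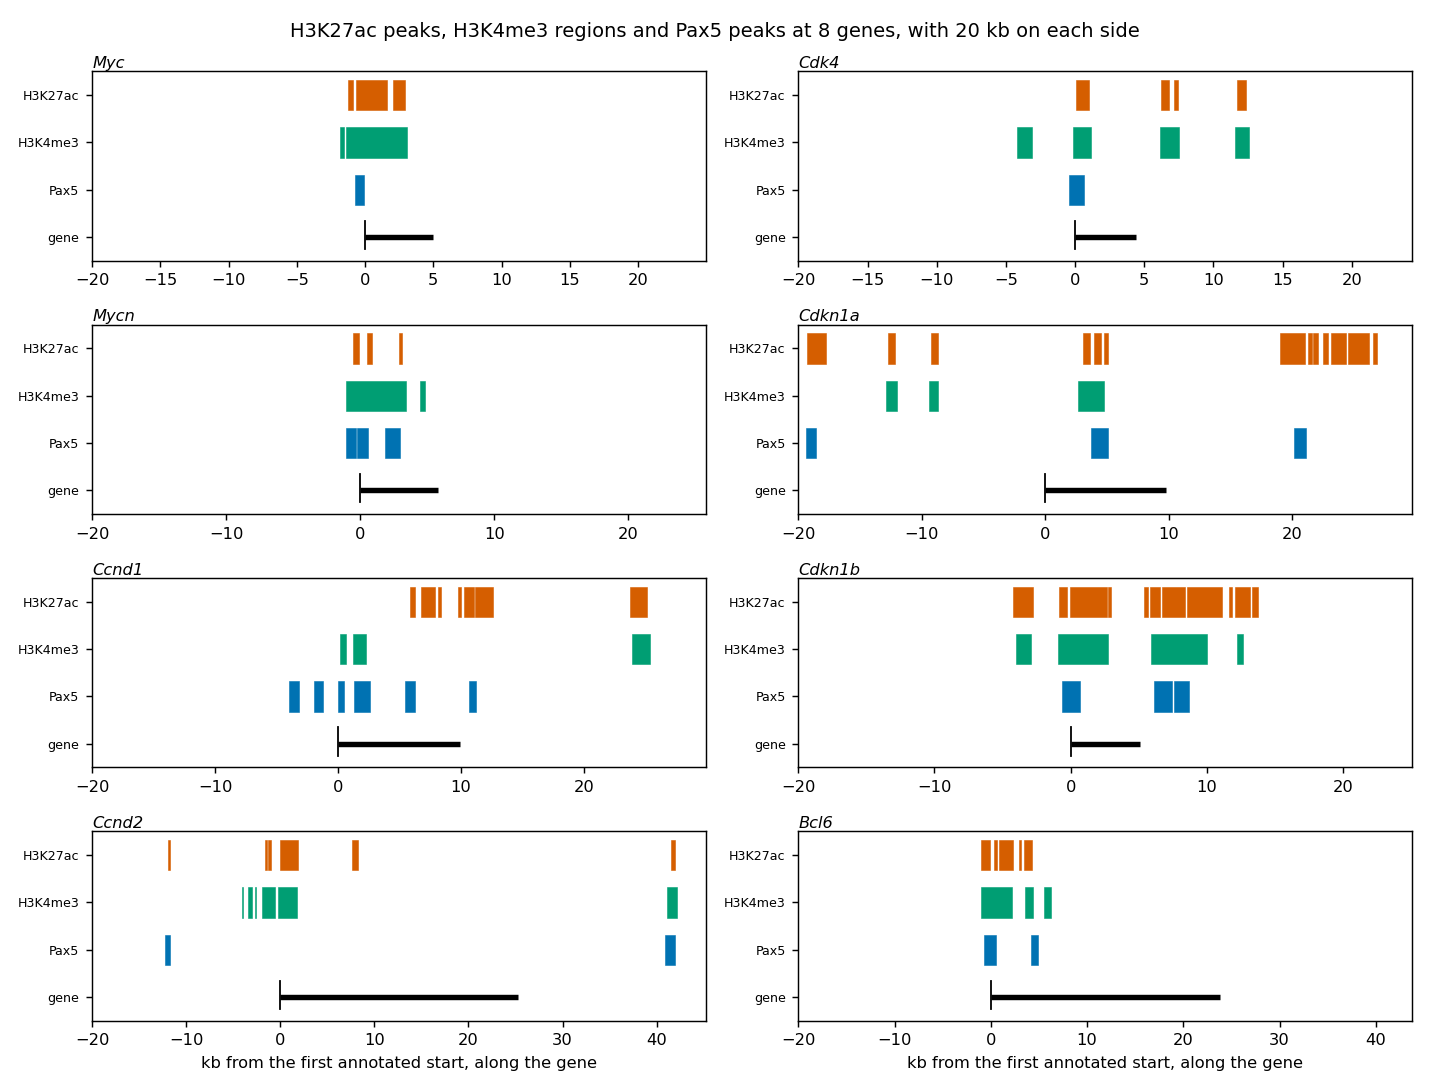
Maps of the 8 genes shorter than 50 kb along the direction of transcription, with distance from the first annotated start in kb on the x axis, the gene as a black bar with a tick at its first start, and Pax5 peaks, H3K4me3 regions and H3K27ac peaks as blue, green and orange boxes drawn to scale. The 3 peaks of H3K27ac at Myc lie at its starts, Ccnd1 has no orange box over its starts, and Cdkn1a and Cdkn1b have clusters of orange boxes downstream of the gene.

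Ccnd3, which encodes cyclin D3, the D-type cyclin on which pre-B cell expansion depends, lies at chr17:47642000-47736632 on the + strand of chromosome 17 (ENSMUSG00000034165.8) and has 2 annotated starts 88416 bp apart. H3K27ac was spread over much of the gene, of whose body it covered 51.2%, with no peak in a stretch of 13.4 kb ahead of the second start. There were 61 peaks with scores from 3.81 to 79.1, or 4.53 per 10 kb, and 41.7% of the window was covered, where the median protein-coding gene had 2.02%. Of the 11848 genes with H3K4me3 at a start, which had a median of 4.54%, 99.5% had a smaller share covered. The first start had H3K27ac of 29.6, H3K4me3 of 2200 bp and a Pax5 peak of 88.48, which is among the lowest scores of the list. The second start had H3K27ac peaks of 18.9 and 50.9, the latter 4389 bp wide, H3K4me3 of 3325 bp and Pax5 of 181.7. All 3 lists were thus higher or wider at the second start.

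In the introns of Ccnd3 there were 50 H3K27ac peaks with a summed width of 40.6 kb and a median score of 8.16. The strongest were 61.8 at 17.05 kb from the first start, 53.5 at 6.83 kb and 52.2 at 37.36 kb, and 8 of the 50 scored over 20, whereas 27 scored below the median of the list. Of the 50, 4 overlapped Pax5, against 11.8% of all H3K27ac peaks away from every annotated start. The 3 Pax5 peaks in the introns scored 227.29 at 26.57 kb, 643.27 at 37.01 kb and 244.01 at 48.27 kb. The 643.27 peak, whose middle bases are shown above, was outscored by 10.9% of Pax5 peaks and lay within the 52.2 peak of H3K27ac. The highest H3K27ac scores in the window lay at the starts of neighbours, 79.1 at Taf8 and 68.5 at the shared start of Bysl and Med20, with H3K4me3 of 1125 and 1975 bp, and Pax5 of 140.97 lay at Taf8. A peak of 30.5 lay in an exon, and the other 5 H3K27ac peaks beyond the 3′ end scored from 4.39 to 12.8. H3K4me3 in the introns comprised 5 stretches of 75 to 850 bp.

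Cdk4, a kinase that partners D-type cyclins, lies at chr10:126500590-126504976 on the + strand of chromosome 10 (ENSMUSG00000006728.6), in a dense stretch of genes. Its start had H3K27ac of 54.8, above the median of 31.7 for all genes with a peak there, H3K4me3 of 1250 bp, and a Pax5 peak of 1116 bp with a score of 223.44. Other peaks in its window lay at starts of neighbours: H3K27ac of 11.4 and 3.96 and H3K4me3 of 1325 bp at the start of Tspan31, and H3K4me3 of 1075 bp at March9. A last H3K27ac peak of 22.9, with H3K4me3 of 975 bp, lay 9.5 kb from the nearest start of Cdk4. No peak of H3K27ac or Pax5 lay in the body of Cdk4 away from its starts.

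Cdk6, the second cyclin D dependent kinase, which is prominent in blood cells, lies at chr5:3343893-3523218 on the + strand of chromosome 5 (ENSMUSG00000040274.5). Here too H3K27ac was spread over the gene, with 80 peaks in the window or 3.65 per 10 kb, and 21.6% of the window covered. Of the genes with H3K4me3 at a start, 98.8% had fewer peaks per length and 94.7% a smaller share covered. At the start there were 3 moderate peaks of 22.4, 20.9 and 20.2 under an H3K4me3 region of 4400 bp (rank 86 of 17979) and a Pax5 peak of 354.67. Upstream of these, under the same H3K4me3 region, lay H3K27ac peaks of 27.2, 20.9 and 9.75, the first of them higher than any at the start. The introns held 72 peaks with a summed width of 42.6 kb, a median width of 318 bp and a median score of 6.66, and 52 of them scored below the median of the list. Thus they were narrower and lower than those of Ccnd3, whose median width was 515.5 bp.

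The strongest intron peaks of Cdk6 scored 44.6 at 61.33 kb, 43.4 at 76.56 kb, 31.6 at 158.02 kb and 29.4 at 150.06 kb, each from 2027 to 3370 bp wide. In all, 1 of the 72 intron peaks overlapped Pax5, against 11.8% of H3K27ac peaks away from every annotated start. It was the last of these, overlapped by the single Pax5 intron peak, 176.63, which holds the letters shown above. H3K4me3 appeared in the introns as stretches of 325 and 350 bp, and exons held H3K27ac of 8.02 and, at the start of the gene Gm17590, of 4.14. Together, Ccnd3 and Cdk6 held 141 of the 193 H3K27ac peaks of the 10 windows (73.1%). They held 12 of 39 H3K4me3 regions (30.8%) and 8 of 29 Pax5 peaks (27.6%). Their windows, of 134.6 and 219.3 kb, were the longest of the 10, and the next was 65.3 kb, at Ccnd2.

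**Figure D3:**
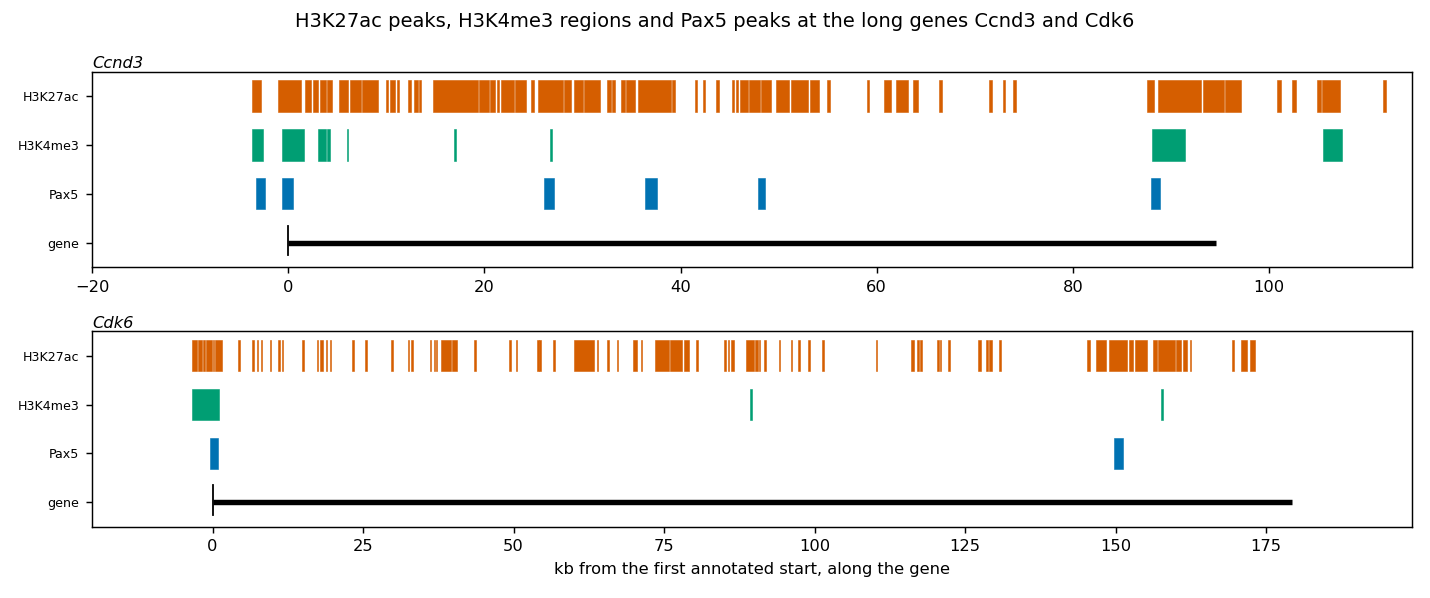
Maps of Ccnd3 and Cdk6 drawn as for the shorter genes, with distance from the first annotated start in kb. H3K27ac (orange) is spread over the introns in 50 peaks at Ccnd3 and 72 at Cdk6, while Pax5 (blue) has 3 intron peaks at Ccnd3 and 1 at Cdk6.

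**Figure D4:**
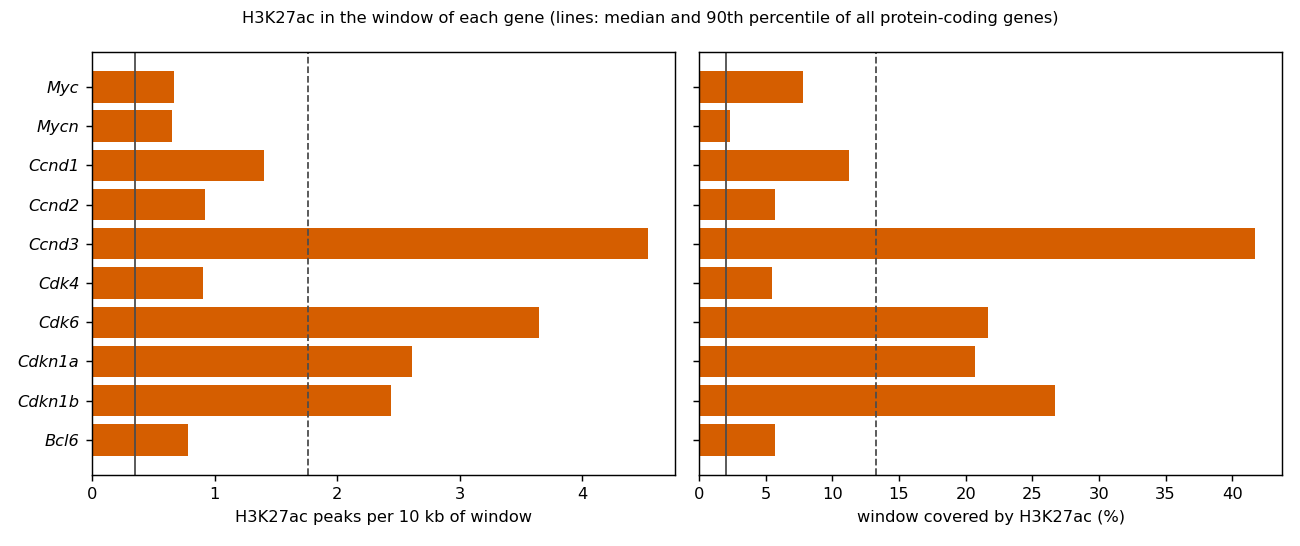
H3K27ac peaks per 10 kb of window (left) and percent of the window covered by H3K27ac (right), 1 bar per gene from 1 library, with the median (solid line) and the 90th percentile (dashed line) of all protein-coding genes. Ccnd3, Cdk6, Cdkn1a and Cdkn1b pass the dashed line in both panels, with peaks as deposited, and Mycn covers 2.35%, the lowest of the 10.

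Since long genes hold more peaks, the plot of H3K27ac density gives the peaks per length. Ccnd3 (4.53 per 10 kb), Cdk6 (3.65), Cdkn1a (2.61) and Cdkn1b (2.44) were above the 90th percentile of all protein-coding genes, 1.76, and also above that of the genes with H3K4me3 at a start, 2.14. Ccnd1 had 1.40, Ccnd2 0.919, Cdk4 0.901, Bcl6 0.784, Myc 0.667 and Mycn 0.655. These counts depend on how the caller split its peaks. With peaks joined across gaps of up to 500 bp, an alternative chosen after seeing the data, Cdk6 had 2.23 domains per 10 kb and Ccnd3 1.93, in the opposite order, and both were above the 90th percentile of all protein-coding genes, 1.08, whereas Cdkn1a with 1.01 and Cdkn1b with 0.887 were not. As deposited, the peak densities of Myc and Mycn were close to the median of the genes with H3K4me3 at a start, 0.696.

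Cdkn1a, which encodes the inhibitor p21, a target of p53, lies at chr17:29227924-29237667 on the + strand of chromosome 17 (ENSMUSG00000023067.7) and has 3 annotated starts. Of these, the second, 2793 bp into the gene, had all 3 lists within 1000 bp, and the others had none. The window of 500 bp on each side of the first start had 7 CpG, with an observed over expected ratio of 0.126, and that of the second start had 53 and 0.630, where the median gene had 41 and 0.549. The third start, with none of the lists, had 39 and 0.532. At the second start H3K27ac scored 18.1, and 28.2% of genes with a peak at a start had a lower score. H3K27ac peaks of 23.1 and 6.64 followed in the intron, H3K4me3 covered 2050 bp, and a Pax5 peak of 259.66 had its middle 1.58 kb beyond the second start. The strongest H3K27ac lay outside the gene, in a cluster of 7 downstream peaks. Among these were 38.6 at 12.81 kb and 61.3 at 18.14 kb from the nearest start of Cdkn1a. The latter was outscored by 3.85% of the list. A Pax5 peak of 126.47 lay on the first of these, 2 of the peaks lay at the start of the gene Gm16194, and another Pax5 peak of 198.91 lay 19.0 kb upstream on H3K27ac of 9.75. The other 5 peaks of the cluster scored from 5.24 to 17.9. Upstream there were also H3K27ac of 8.02 with H3K4me3 of 875 bp, at the start of the gene Gm16197, and H3K27ac of 12.3 with H3K4me3 of 725 bp.

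Cdkn1b, which encodes p27, the inhibitor that holds cyclin and kinase pairs in resting lymphocytes, lies at chr6:134870419-134875531 on the + strand of chromosome 6 (ENSMUSG00000003031.8). It had the highest H3K27ac of the 10 genes at a start. The peak of 2712 bp scored 116.4, which is rank 493 of 69345, and 95.6% of genes with a peak at a start had a lower score. A second peak of 53.8 lay just upstream, H3K4me3 covered 3675 bp, and a Pax5 peak of 224.04 lay over the start, with the match shown above. A second block lay beyond the 3′ end of the gene. It comprised H3K27ac peaks of 34.6, 94.8 and 33.9 with middles from 6.20 to 9.83 kb from the start, overlapping an H3K4me3 region of 4125 bp (rank 122 of 17979), and Pax5 peaks of 499.55 at 6.79 kb and 424.87 at 8.15 kb. Both of these Pax5 scores were higher than that at the start. Further H3K27ac peaks were 20.3 at 3.5 kb upstream with H3K4me3 of 1050 bp, 18.9 at 12.63 kb with H3K4me3 of 400 bp, and 4 of 5.94 to 9.75 in an exon or downstream. The H3K4me3 of the window covered 20.5% of it, and 99.7% of protein-coding genes had less. No start of another gene lay in this block, and the strand and transcripts there are unknown from these lists.

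Bcl6, a zinc finger repressor that protects small pre-B cells from the DNA damage response, lies at chr16:23965138-23988938 on the − strand of chromosome 16 (ENSMUSG00000022508.5). Its lists gathered at the 5′ end. H3K27ac scored 56.1, 30.5 and 54.8 in 3 peaks at the first start, under an H3K4me3 region of 3250 bp and a Pax5 peak of 371.31, while the second annotated start, 16472 bp into the gene, had none. The first start lay in the most CpG-rich setting of the 10 genes by observed over expected ratio (0.981). In the intron at 4.57 kb lay the highest Pax5 peak of all 10 windows, 700.3, which was outscored by 9.08% of Pax5 peaks and holds the match GCGTGAC shown above. The H3K27ac it touched was weak, with a score of 9.75, and H3K4me3 covered 825 bp there. The introns also held H3K27ac of 5.94 and H3K4me3 of 725 bp.

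Pax5 in the 10 windows fell mostly on H3K27ac, whereas most H3K27ac had no Pax5, as was also the case in the lists as a whole. Of the 29 Pax5 peaks, 25 overlapped H3K27ac by at least 1 bp, against 79.3% of all Pax5 peaks. The 4 that did not were those at and upstream of the starts of Ccnd1. Where 50% of the Pax5 peak had to lie on H3K27ac, 18 of the 29 did. The share of all Pax5 peaks was not counted at that setting. Of the 14 Pax5 peaks away from every annotated start, 12 overlapped H3K27ac, against 67.3% of such peaks in the list. In the other direction, of 162 H3K27ac peaks away from every start, 18 overlapped Pax5, against 11.8% of such peaks. With so few peaks and no replicates, these counts were not tested against the lists. By place, the Pax5 peaks comprised 13 at a start of these genes, 1 in an exon and 5 in introns. The upstream and downstream flanks held 5 each. In the order start, exon, intron, upstream flank and downstream flank, H3K27ac had 20, 7, 129, 10 and 27. H3K4me3 had 13, 1, 9, 9 and 7 in that order. Of the 129 intron peaks of H3K27ac, 50 were in Ccnd3 and 72 in Cdk6. The lists as a whole were not counted by place.

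**Figure D5:**
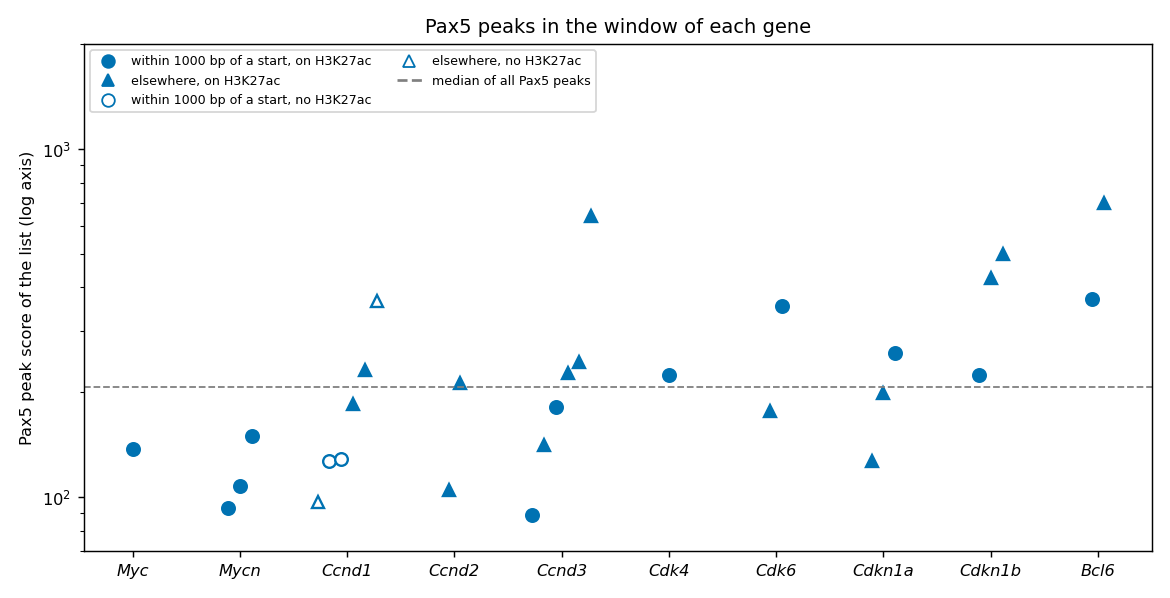
Score of every Pax5 peak in the window of each gene on a log axis, as circles within 1000 bp of a start and triangles elsewhere, filled where the peak overlaps H3K27ac and open where it does not, with the median of all Pax5 peaks (207.46) as a dashed line. The 4 open symbols all belong to Ccnd1, and the highest symbol of Bcl6, Ccnd3 and Cdkn1b is a triangle.

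The plot of Pax5 scores shows that the strongest Pax5 peak was away from the starts at Bcl6, Ccnd3, Cdkn1b and Ccnd1, with 700.3, 643.27, 499.55 and 364.37, against 371.31, 181.7, 224.04 and 128.61 for the highest peak at a start. At Cdk6 and Cdkn1a the highest peak was at a start, with 354.67 and 259.66, and at Myc, Mycn and Cdk4 all Pax5 peaks were at starts.

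The other 30 genes of the pathway list were further cyclins and kinases with their regulators, inhibitors, retinoblastoma and E2F proteins, partners and rivals of Myc, antiproliferative genes, and Mdm2. H3K27ac was at a start of 27 of 30, against 49.0% of all protein-coding genes, and H3K4me3 of 29, against 53.0%. Pax5 was at a start of 26, against 38.1%, and all 3 lists of 23, against 34.9%. No gene had none, and all 30 had Pax5 in the window, against 58.2%. These genes too were chosen by role, and the background counts silent genes, so the shares say nothing particular to them. The 6 Max network genes, whose proteins pair with Max to support or oppose Myc, all had the 3 lists at a start, with Pax5 of 912 at Mxd4, 585 at Mnt, 408 at Mxi1, 367 at Mxd1, 191 at Max and 129 at Mxd3. So did the antiproliferative genes Btg1 (515), Btg2 (353) and Trp53 (129), and also Mdm2 (193). Btg2 had 8 Pax5 peaks in its window and the highest H3K27ac at a start of the 30, 136.

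Among the cyclin and kinase genes, Pax5 was at Cdk1 (259), Ccne2 (168), Cdk2 (127), Ccna2 (117) and Ccnb1 (95.8), and was missing at Ccne1. It was also at the regulator genes Cdc25a (343) and Skp2 (198). It was at the retinoblastoma genes Rbl2 (166) and Rb1 (143) but not Rbl1, and at E2f3 (229), E2f2 (164) and E2f1 (116) but not E2f4. Of the 5 other inhibitor genes, H3K27ac was at a start of 2, Cdkn2c and Cdkn2d. Cdkn2d had Pax5 of 707 with no H3K4me3 region, while Cdkn1c (180) and Cdkn2b (89.6) had H3K4me3 and Pax5 without H3K27ac, the combination of Ccnd1, and Cdkn2a had H3K4me3 alone. Cdkn2c (112) was the inhibitor of this group with all 3.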

How the data were processed

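Chromatin immunoprecipitation lists for H3K27ac, H3K4me3 and Pax5 from pre-B cells were analysed, 1 library each, and the 3 input samples were not used here. According to the submitters' processing notes, reads were aligned to mm9 with Bowtie 0.12.9 and MACS 1.4.2 was used. The Pax5 list was called against input. Which settings made these lists, and whether the H3K27ac list was called against input, is not given in the sources used here. The score of each peak in the H3K27ac and Pax5 lists is as the authors deposited it, of unnamed scale, and ranks peaks within a list only. The deposited H3K4me3 list holds other values, 25 bp bins with no score, whose calling rule is not given in the sources used here. How duplicates, depth and thresholds were set decides which weak peaks are listed, and with no counts to use, no interval is given.

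Bins separated by up to 100 bp were joined. Peaks were placed by overlap of at least 1 bp with 1000 bp on each side of any annotated start in GENCODE M1, otherwise by their middle in exons, introns or flanks of 20 kb. Distances run from the nearest start of the gene described to the middle of the peak unless the first start is named. Ranks count from the highest score or greatest width, and tied peaks share a rank. Sequences came from the NCBIM37 genome, which is mm9, and promoter sequences of another build were not used. All 10 genes are reported, with all their peaks counted, most given by score or width and the intron peaks of the long genes by summary, and of the pathway genes those with Pax5 at a start and those with none of the lists. Other genes are named where a peak of the 10 windows lies at their start or where they lack a list. Members and gene lists were chosen with earlier results of these data known. Scripts (Python 3.11.15, numpy 2.4.6, matplotlib 3.10.9) were tested on simulated peaks planted at known places. Alternatives covered the start window, transcripts, flank, overlap, joining and stricter lists.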

Additional observations from a re-analysis of the deposited data

How the results depend on the processing

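Of 50 values under alternative settings, 44 stayed within 1.5 times the reported count. The 6 beyond it came from fewer peaks by construction. Keeping the higher-scoring 50% of the H3K27ac and Pax5 lists (34708 and 7722 peaks) left 90 H3K27ac peaks in the windows instead of 193, 14 Pax5 peaks instead of 29, 13 Pax5 peaks on H3K27ac instead of 25, Pax5 at a start of 5 genes instead of 9, and Pax5 at a start of 10 pathway genes instead of 26. Joining H3K27ac peaks across gaps of up to 500 bp, chosen after seeing the data, left 101, with 26 instead of 61 at Ccnd3, 49 instead of 80 at Cdk6, 5 instead of 13 at Cdkn1a, 4 instead of 11 at Cdkn1b, 3 instead of 7 at Ccnd1, 2 instead of 5 at Bcl6 and 1 instead of 3 at Myc. H3K27ac was at a start of 9 genes under every alternative run, and H3K4me3 at 9 or 10. Pax5 was at a start of 8 or 9 but for the stricter list. The share of all protein-coding genes with Pax5 at a start was not counted on the stricter list. The 38.1% given above is from the full list. With 500 bp on each side of a start, Cdkn1a lost Pax5. No paired analysis was possible because there is a lone library for each mark and for Pax5. Depth is unknown, so a missing peak may lie below the caller's threshold.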

Other observations

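Beyond 20 kb, several of these genes had further peaks before the next protein-coding gene. Myc lies in a stretch of 1064 kb to A1bg on one side and 1786 kb to Gsdmc on the other, which held 47 H3K27ac peaks, 4 H3K4me3 regions and 5 Pax5 peaks. The highest H3K27ac of these scored 36.2, above the 28.5 at the Myc starts, and lay 183.1 kb downstream, with a Pax5 peak of 190.66 over it. A Pax5 peak of 1073.23, rank 554 of the list, lay 1384.1 kb downstream on H3K27ac, and H3K27ac of 14.1 lay at the start of the noncoding gene Pvt1 at 50.4 kb. Mycn had no peak of any list in the 277 kb between it and Ddx1 beyond its window.

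Between Bcl6 and Lpp, 404 kb apart, there were 39 H3K27ac peaks, 2 H3K4me3 regions and 2 Pax5 peaks, the latter with scores of 507.41 at 176.7 kb and 300.4 at 350.9 kb upstream of Bcl6 and both on H3K27ac. Upstream of Ccnd1, H3K27ac of 28.2 lay at 171.7 kb with Pax5 of 236.84, which is higher than any H3K27ac peak in the Ccnd1 window. Just outside the Cdkn1b window, 22.3 kb upstream, the start of Gpr19 had H3K27ac of 126.5 and Pax5 of 1387.19, both higher than any peak in the Cdkn1b window. Which gene a distant peak acts on cannot be read from these lists.

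With H3K27ac peaks joined across gaps of up to 500 bp, the widest domains of the 10 genes were 9608 bp around the second start of Ccnd3 (rank 192 by width), 7795 bp downstream of Cdkn1a (rank 377), 6302 bp in the Cdk6 intron (rank 691) and 5726 bp downstream of Cdkn1b (rank 918). At Mycn the widest was 459 bp.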
